A study of Mus musculus with 8 samples.

Results

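The lysosomal proton pump, the hydrolases that depend on its acid and the transcription factors that switch these genes on were described in RNA from mixed co-cultures of mouse spleen and colon cancer cells. The genes were taken by name and not by a cut on their values, though earlier results of these data were known. Of the 38 genes, 16 are subunits and accessory proteins of the vacuolar proton pump (V-ATPase) and 7 are proteins of the lysosomal membrane. The others are 6 glycosidases, 6 other proteins of the lysosome's interior and the 3 MiT/TFE transcription factors Tfeb, Tfe3 and Mitf. Cathepsins were not among them. All 38 were found by symbol among the 52636 gene IDs of the files. Of these, 36 had a TPM (transcript abundance per length, scaled to the same total in every library) of at least 1 in 4 or more libraries and were tested together with the other genes that met that minimum, 11433 in all. Gaa and Tfeb were below it.

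The study asked about trogocytosis, in which a cell takes up pieces of the surface of a cell that it touches. Colon cancer organoids with a tdTomato reporter were injected into the spleen, and tumour cells were recovered from liver metastases and sorted on tdTomato and on CD4, a T cell surface protein, into trogocytic cells and non-trogocytic cells. Each kind was then cultured for 5 days with splenocytes of Actin-GFP reporter mice, 1 cancer cell to 50 splenocytes, and polyadenylated RNA of the whole culture was sequenced. Both groups hold 4 libraries, share the C57BL/6 strain, the reporter splenocytes and the same tumour source, and differ in the sorted cancer cells, so the non-trogocytic co-cultures serve as the control. The genotype of the organoids, the age of the mice and the number of animals behind each group are not in the labels. Each value is therefore that of a mixture of splenocytes and cancer cells, and fewer cells of a type and less RNA per cell cannot be told apart.

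Lysosomes are the acidic compartments in which cells break down material taken up from outside and their own worn components. The V-ATPase acidifies them: its V1 sector, on the cytosolic face, splits ATP and turns a rotor, and its V0 sector, in the membrane, carries protons across. TFEB, TFE3 and MITF bind a DNA element in the promoters of many lysosomal genes, which has the E-box CACGTG at its core and raises these genes together when nutrients are short or the lysosome is loaded. Macrophages, which digest what they engulf, are known for high levels of many lysosomal genes.

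The promoters of 3 genes are printed because they hold the E-box inside the longer form of that element. In a RefSeq promoter table of GRCm38.p6, with 250 bases before and 50 bases after each start, 31 of the 38 genes were matched, with 40 promoters. The letters CACGTG, which read the same on both strands, occurred in 9 of these 40 promoters and in 7.15% of all 32851 promoters. The longer CACGTGAC, searched on both strands (GTCACGTG on the other) and always overlapping a CACGTG, occurred in 6 of the 40 and in 2.25% of all. Those 6 belong to Atp6v0b, Cln3, Mcoln1, Lamp1, Atp6v0d1 and Glb1, and the shorter match was also found for Gaa, Atp6v1a and Atp6v0e. The printed stretches run from position -100 to -6, where -1 is the base before the RefSeq start, with each CACGTG in capitals: Glb1 (lysosomal beta-galactosidase, plus strand, chr9:114400978-114401072), Lamp1 (an abundant glycoprotein of the lysosomal membrane, plus strand, chr8:13159061-13159155) and Atp6v0b (a subunit of the proton-carrying ring, minus strand, chr4:117887335-117887429).
Glb1: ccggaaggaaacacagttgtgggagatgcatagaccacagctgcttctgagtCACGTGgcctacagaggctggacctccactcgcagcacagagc
Lamp1: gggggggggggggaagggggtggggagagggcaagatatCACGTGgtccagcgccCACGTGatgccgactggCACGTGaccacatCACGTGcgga
Atp6v0b: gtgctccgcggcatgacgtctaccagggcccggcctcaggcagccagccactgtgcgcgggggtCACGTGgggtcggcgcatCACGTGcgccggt
The Glb1 stretch holds 1 E-box at -48, the Atp6v0b stretch holds 2, at -36 and -18, and the Lamp1 stretch holds 4, at -61, -45, -28 and -15. A match describes the letters only and does not show that a factor binds there. Of the 6 genes with the longer form, up to 4 with the smallest limma p were to be printed, which leaves Mcoln1 and Atp6v0d1 unprinted. Cln3, the fourth, was left out because its window lies over exons of other transcripts.

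Libraries held 1.39 to 1.84 Gb of aligned bases, or 6.93 M to 9.21 M read pairs at full length, and 10867 to 12362 genes at 1 TPM or more. For a 2 kb transcript, 1 TPM stands for 5.83 to 8.45 read pairs, which makes the lowest genes imprecise. Epithelial markers were detected in every library (13 to 14 of 14 listed) and so were markers of leukocytes (6 of 6), T cells (9 to 10 of 10) and macrophages (14 to 16 of 16). Of the 8 libraries, non-trogocytic 1 held the highest value of 15 of the 36 tested lysosomal genes and non-trogocytic 2 that of 12. Trogocytic libraries 2 and 3 each held the lowest value of 12.

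None of the 36 lysosomal genes passed the test between the groups (limma, Benjamini-Hochberg adjusted p below 0.05 over all genes tested), where 6 genes, 0.0525% of those tested, did. At an unadjusted p below 0.05 there was 1, the pump subunit gene Atp6v0d2, which was lower in trogocytic co-cultures. Among all genes tested, 2.52% were lower at that level. Fold changes, which compare trogocytic with non-trogocytic co-cultures as differences of log2(TPM + 1) and carry 1 SE, were below 0 for 27 of the 36 (75.0%), beside 49.3% of all genes tested. Their median was -0.27, and that of all genes tested was 0.01. Leaving out 1 library moved the median of the 36 as far as -0.12 (without non-trogocytic 1, with -0.05 for all genes) and -0.46 (without non-trogocytic 4, with 0.01 for all genes). The counts are given by role with no test of a difference between roles. Of the 16 pump genes, 9 were below 0 and 7 above, with a median of -0.07. Of the 20 tested genes outside the pump, 18 were below 0, with a median of -0.50. Counted over the 36, these directions are not independent of each other, since the genes share 8 libraries. The plot of fold changes sets the genes in this order.

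**Figure D1:**
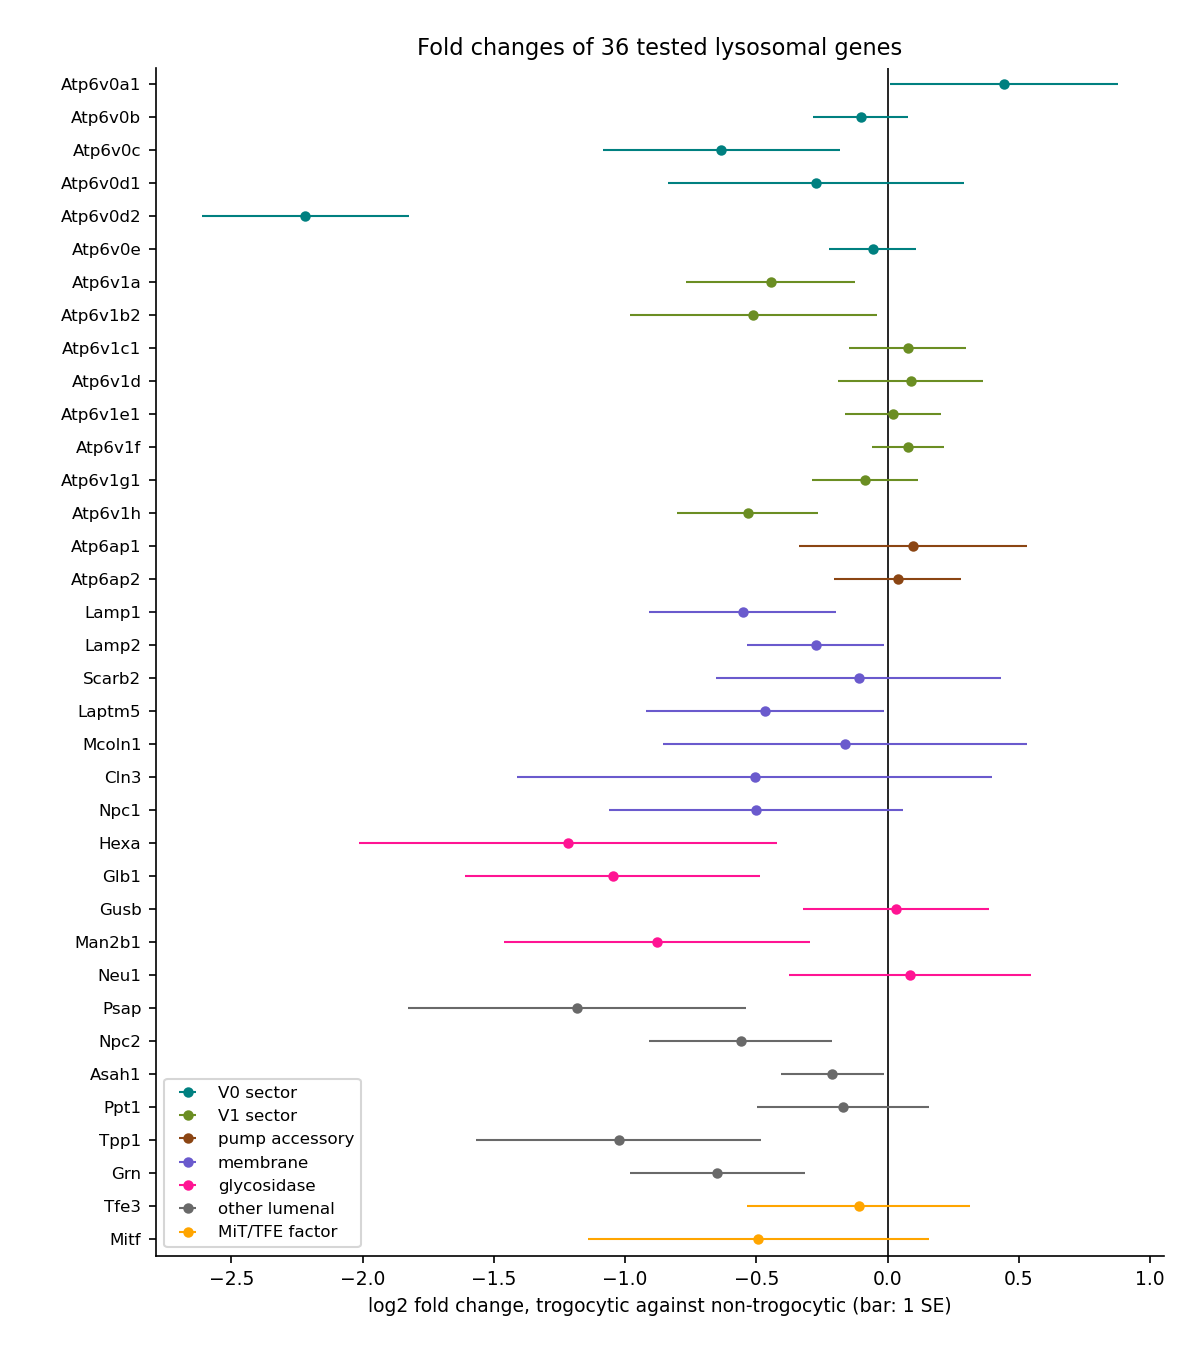
Fold changes of the 36 tested lysosomal genes, by role. The horizontal axis is the difference of trogocytic minus non-trogocytic means of log2(TPM + 1), points are limma estimates and bars are 1 SE. Atp6v0d2 stands at -2.22, and pump genes lie on both sides of 0 while 18 of 20 others lie below it. Under FPKM in place of TPM, Atp6ap2, Atp6v1e1 and Gusb change from just above 0 to just below it.

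Atp6v0d2 was the lysosomal gene that differed most. It encodes the d2 isoform of the subunit that links the V0 ring to the central stalk, known from osteoclasts and macrophages, while the d1 isoform is general (GRCm38 chr4:19876841-19922605, minus strand). Its level was 249, 158, 207 and 71.3 TPM in non-trogocytic libraries 1 to 4 and 52.3, 23.1, 31.7 and 29.4 TPM in trogocytic libraries 1 to 4. All 4 non-trogocytic values lay above all 4 trogocytic values, the closest being non-trogocytic 4 and trogocytic 1. The means were 171 ± 76.2 TPM (SD, n = 4) against 34.1 ± 12.6 TPM (SD, n = 4), a 5.02-fold lower mean in the trogocytic group. The fold change of -2.22 ± 0.39 had a limma adjusted p of 0.187, which does not pass. By limma p the gene ranked 11 among the 11433 genes tested. Atp6v0d2 was the sole one of the 36 genes whose groups did not overlap, where 2.68% of all genes tested had groups that did not overlap. Without non-trogocytic library 4, the lowest of its group, the fold change was -2.59 with a limma adjusted p of 0.0495. Over the alternatives tried, the fold change lay between -2.59 and -1.99 and the adjusted p between 0.0495 and 0.837.

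Markers of macrophages, cells known to express Atp6v0d2, are given beside it. Of 16 listed, 14 were tested and all 14 had a fold change below 0, with a median of -0.86. At an unadjusted limma p below 0.05 there were 5, and none passed after adjustment. Among all genes tested, 49.3% had a fold change below 0 and 2.52% were lower at that unadjusted level. Their summed level was 3205 to 14070 TPM in the non-trogocytic libraries and 1408 to 4753 TPM in the trogocytic ones. The lysozyme gene Lyz2 alone made up 80.9 to 85.9% of that sum in each library, and without it the sum was 568 to 2014 TPM in the non-trogocytic libraries and 232 to 907 TPM in the trogocytic ones. None of the 16 was at 0 in every library, though Cd163 was listed at 0 in 3 libraries of each group, Adgre1 in trogocytic 3 and Fcgr1 in trogocytic 2. The part of macrophage content in the lysosomal values was not tested. Among the 14 tested, 1 had groups that did not overlap, beside 2.68% of all genes tested. It was Fcgr1, a macrophage receptor for antibody, at 7.39 ± 5.21 TPM (SD, n = 4) against 0.681 ± 0.936 TPM (SD, n = 4). Csf1r, the receptor for a macrophage growth factor, was under the minimum for testing. Its groups did not overlap either, at 0.727 to 4.88 TPM against 0.175 to 0.63 TPM, values too low to be precise. Cd163, also untested, went the other way, with means of 0.40 TPM against 1.90 TPM and 7.62 TPM in trogocytic 1. The means of Adgre1 were 8.96 TPM against 9.04 TPM, and its highest value, 27.4 TPM, was in trogocytic 1.

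The general isoform of the same subunit showed no such gap. Atp6v0d1 (chr8:105524465-105566047) was at 99.0, 132, 33.2 and 32.0 TPM in non-trogocytic libraries 1 to 4 and 78.9, 25.6, 32.4 and 98.4 TPM in trogocytic libraries 1 to 4, so high and low libraries occurred in both groups. Its means were 74.1 ± 49.7 TPM (SD, n = 4) against 58.8 ± 35.5 TPM (SD, n = 4) and its fold change was -0.27 ± 0.56, with limma adjusted p = 0.9998, and that sign turned when non-trogocytic 2 or trogocytic 2 was left out. Atp6v0d2 made up 71.5%, 54.5%, 86.2% and 69.0% of the summed TPM of both isoforms in non-trogocytic libraries 1 to 4. In trogocytic libraries 1 to 4 it made up 39.8%, 47.5%, 49.4% and 23.0%. These shares did not overlap, with means of 70.3% ± 13.0 (SD, n = 4) and 39.9% ± 12.0 (SD, n = 4). The share was chosen after its values were seen and is given with no test.

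**Figure D2:**
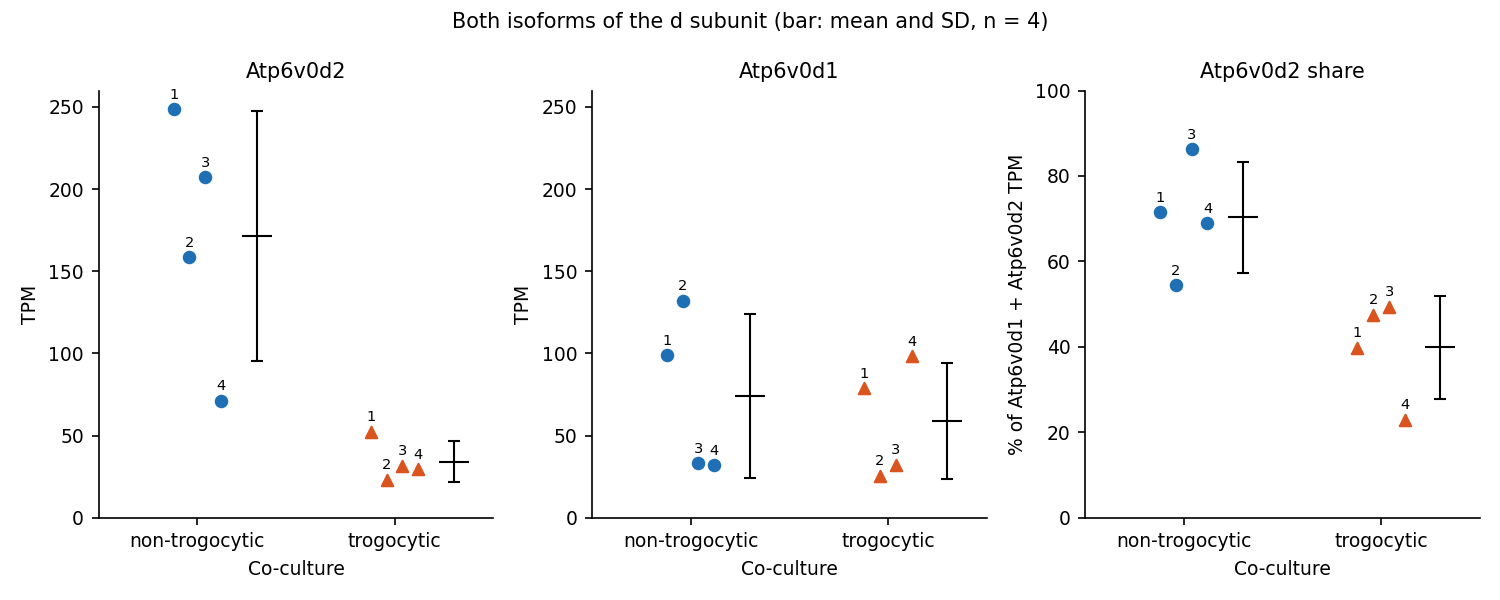
Levels of Atp6v0d2 and Atp6v0d1 in TPM, and the share of Atp6v0d2 in their sum in percent, in each library, numbered 1 to 4 within each group. Bars are the mean and SD of 4 libraries. Atp6v0d2 and its share do not overlap between the groups, and Atp6v0d1 does.

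The other V0 genes overlapped between the groups. Atp6v0e (chr17:26676396-26699644), a small membrane subunit, had the highest mean of all 38 genes. It was at 1095, 775, 909 and 774 TPM in non-trogocytic libraries 1 to 4 and 1036, 787, 820.4 and 764 TPM in trogocytic libraries 1 to 4, a spread of 1.43-fold from the lowest to the highest library, and its fold change was -0.06 ± 0.17. Atp6v0b, a ring subunit, was at 498, 571, 436 and 439.8 TPM in non-trogocytic libraries 1 to 4 and 599.5, 410.3, 379 and 439.6 TPM in trogocytic libraries 1 to 4, with a fold change of -0.10 ± 0.18. The groups overlapped for both genes. Atp6v0c, which makes the main ring subunit, spread from 23.0 to 154 TPM, with a fold change of -0.63 ± 0.45. Its pseudogene Atp6v0c-ps1, which could share reads with it, had a mean of 0.249 TPM. Atp6v0a1, an isoform of the large subunit that forms the proton path, was the V0 gene with a fold change above 0, at 0.44 ± 0.43. Its lowest value, 4.29 TPM, was in non-trogocytic 1 and its highest, 17.2 TPM, in trogocytic 3.

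The V1 sector held 4 genes with a fold change below 0 and 4 above, with a median of -0.03. Atp6v1h (chr1:5070018-5162529), a regulatory subunit needed for ATP splitting in the assembled pump, had the smallest p after Atp6v0d2. It was at 90.6, 101, 73.9 and 47.2 TPM in non-trogocytic libraries 1 to 4 and 56.0, 50.5, 45.4 and 55.4 TPM in trogocytic libraries 1 to 4. Of the non-trogocytic values, 3 were above every trogocytic value and the one left, non-trogocytic 4, lay among them. The means were 78.1 ± 23.4 TPM (SD, n = 4) against 51.8 ± 4.95 TPM (SD, n = 4), with a fold change of -0.53 ± 0.27 and a limma adjusted p of 0.9998. Atp6v1a and Atp6v1b2, the catalytic subunit and its partner in the ATP-splitting ring, had fold changes of -0.45 ± 0.32 and -0.51 ± 0.47. Atp6v1b2 ranged over 43.7 to 232 TPM, with its highest value in non-trogocytic 2 and its lowest in trogocytic 2.

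The remaining V1 genes differed little between the groups. Atp6v1g1, a subunit of the outer stalk, was at 1154, 641, 715 and 698 TPM in non-trogocytic libraries 1 to 4 and 881, 638, 706 and 736 TPM in trogocytic libraries 1 to 4. Non-trogocytic 1 stood highest and the groups overlapped, with a fold change of -0.09 ± 0.20. Atp6v1f, a rotor subunit, was at 642, 631, 604 and 619 TPM in non-trogocytic libraries 1 to 4 and 566, 695, 649 and 739 TPM in trogocytic libraries 1 to 4, the narrowest range of the 38 genes at 1.3-fold, with both its lowest and its highest values in trogocytic libraries. Its fold change was 0.08 ± 0.14. Atp6v1c1 and Atp6v1e1, which belong to the stalks that hold the pump's stator, and Atp6v1d, in the rotor, had fold changes of 0.08 ± 0.22, 0.02 ± 0.18 and 0.09 ± 0.28. Each of these 3 reversed its sign when some single library was left out, and Atp6v1e1 also did under FPKM, at -0.03.

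Both accessory proteins of the pump had fold changes near 0. Atp6ap1, which helps to assemble it, ranged over 39.6 to 174 TPM with a fold change of 0.10 ± 0.43. Atp6ap2, also known as the prorenin receptor, ranged over 107 to 221 TPM with a fold change of 0.04 ± 0.24, or -0.02 under FPKM. Summed over the 16 pump genes, the level was 3530 to 5020 TPM in the non-trogocytic libraries and 3438 to 4422 TPM in the trogocytic ones. The ranges overlapped over most of their length. Among the 38 genes, 15 had a mean of at least 100 TPM, and 10 of these were pump genes.

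All 7 genes of lysosomal membrane proteins had fold changes below 0, with a median of -0.47, and none passed the test. Lamp1 (chr8:13159161-13175338), whose promoter with 4 E-boxes is printed above, was at 246, 318, 160.4 and 115 TPM in non-trogocytic libraries 1 to 4 and 207, 116, 84.0 and 153 TPM in trogocytic libraries 1 to 4. Non-trogocytic 1 and 2 were the highest and trogocytic 3 the lowest, and the groups overlapped. The means were 209.9 ± 90.2 TPM (SD, n = 4) against 140.1 ± 53.0 TPM (SD, n = 4), with a fold change of -0.55 ± 0.36 and limma adjusted p = 0.9998. Laptm5 (chr4:130913125-130936141), a lysosomal protein of blood cells that lowers antigen receptor levels, was at 165, 66.1, 59.0 and 34.0 TPM in non-trogocytic libraries 1 to 4 and 77.1, 41.2, 31.4 and 58.7 TPM in trogocytic libraries 1 to 4. The highest library was non-trogocytic 1 and the groups overlapped, with a fold change of -0.47 ± 0.45, which was -0.05 without non-trogocytic 1 and -0.80 without non-trogocytic 4.

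Lamp2, the partner of Lamp1, ranged over 133 to 325 TPM, and its fold change was -0.27 ± 0.26, or -0.06 without non-trogocytic 1 and -0.49 without non-trogocytic 4. Npc1, which exports cholesterol from the lysosome, ranged over 6.86 to 38.3 TPM, with a fold change of -0.50 ± 0.56, or -0.08 without non-trogocytic 1 and -0.85 without non-trogocytic 4. The other membrane genes had low means and wide spreads. Cln3, mutated in a childhood neurodegenerative storage disease, ranged over 0.339 to 20.2 TPM with a fold change of -0.51 ± 0.90. Mcoln1, a calcium channel of the lysosome, ranged over 1.06 to 16.5 TPM with a fold change of -0.16 ± 0.69. Scarb2, the receptor that brings glucocerebrosidase to lysosomes, ranged over 1.48 to 9.61 TPM with a fold change of -0.11 ± 0.54. Each of these 3 turned positive when a single library was left out: non-trogocytic 2 or trogocytic 2 for Mcoln1, non-trogocytic 4 or trogocytic 2 for Scarb2, and non-trogocytic 2 or trogocytic 4 for Cln3. Exons of Cln3 overlap those of Apobr on the other strand over 442 bases, at means of 6.90 and 1.47 TPM, and whether the counting used strand is not known.

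Of the 6 glycosidases, which strip sugars from glycolipids and glycoproteins, 5 were tested, 3 with a fold change below 0 and 2 just above, with a median of -0.88. Under FPKM Gusb was also just below 0, at -0.01. Glb1 (chr9:114401076-114474898) was at 4.42, 5.22, 1.88 and 1.82 TPM in non-trogocytic libraries 1 to 4 and 3.58, 0, 0.359 and 1.41 TPM in trogocytic libraries 1 to 4. It was listed at 0 in trogocytic 2, and trogocytic 1 lay above 2 of the non-trogocytic libraries. The means were 3.33 ± 1.75 TPM (SD, n = 4) against 1.34 ± 1.61 TPM (SD, n = 4), with a fold change of -1.05 ± 0.56 and limma adjusted p = 0.9998. Hexa, the alpha chain of hexosaminidase A, whose loss causes Tay-Sachs disease, ranged over 1.36 to 47.6 TPM, with the highest value in non-trogocytic 2 and the lowest in trogocytic 3. Its fold change was -1.22 ± 0.80, the lowest of the group, and its exons overlap those of Tmem202 (mean 5.15 TPM) on the other strand over 255 bases. Man2b1, lysosomal alpha-mannosidase, ranged over 0.877 to 11.9 TPM with a fold change of -0.88 ± 0.58.

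Gusb, the beta-glucuronidase, and Neu1, the lysosomal sialidase, were the glycosidases above 0, at 0.03 ± 0.35 and 0.09 ± 0.46. Gusb ranged over 18.5 to 55.9 TPM and Neu1 over 3.74 to 10.2 TPM. Gaa, the acid alpha-glucosidase that breaks down glycogen, was listed at 0 in 4 libraries and reached 0.493 TPM at most. It was not tested. Summed over all 6, glycosidases were at 74.5, 109, 56.3 and 52.3 TPM in non-trogocytic libraries 1 to 4 and at 86.5, 38.3, 30.7 and 75.6 TPM in trogocytic libraries 1 to 4. Trogocytic 2 and 3 were the lowest, and the other 2 trogocytic libraries lay inside the non-trogocytic range.

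The 6 other lumenal proteins all had fold changes below 0, with a median of -0.61, and none passed the test. Psap (chr10:60277627-60302597), the precursor of the saposins that help to degrade sphingolipids, was at 229, 525, 99.6 and 83.8 TPM in non-trogocytic libraries 1 to 4 and 147, 47.9, 33.1 and 157 TPM in trogocytic libraries 1 to 4. The highest library, non-trogocytic 2, was 15.9-fold above the lowest, trogocytic 3, and trogocytic 1 and 4 exceeded non-trogocytic 3 and 4. The means were 234 ± 204 TPM (SD, n = 4) against 96.2 ± 64.7 TPM (SD, n = 4), with a fold change of -1.18 ± 0.64. Npc2 (chr12:84754562-84773152), which hands cholesterol to Npc1, was at 442, 218, 231 and 148 TPM in non-trogocytic libraries 1 to 4 and 257, 118, 125 and 182 TPM in trogocytic libraries 1 to 4. Non-trogocytic 1 was the highest, trogocytic 2 and 3 were the lowest, and the fold change was -0.56 ± 0.35.

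Grn (chr11:102430315-102437048), the progranulin precursor of lysosomal granulins, was at 65.6, 66.0, 62.1 and 36.1 TPM in non-trogocytic libraries 1 to 4 and 58.0, 30.3, 23.1 and 37.7 TPM in trogocytic libraries 1 to 4. Non-trogocytic libraries 1 to 3 lay together above every trogocytic one, and non-trogocytic 4 lay below 2 of the trogocytic ones. The fold change was -0.65 ± 0.33, with limma adjusted p = 0.9998. Tpp1 (chr7:105744811-105752235), a peptidase that clips tripeptides from proteins, was at 55.5, 37.0, 35.6 and 8.85 TPM in non-trogocytic libraries 1 to 4 and 11.8, 10.5, 10.4 and 25.8 TPM in trogocytic libraries 1 to 4. Non-trogocytic 4, at 8.85 TPM, was the lowest library of all and the other 3 of its group were the highest, and the fold change was -1.02 ± 0.54, with limma adjusted p = 0.9998.

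Among the 38 genes, Asah1, acid ceramidase, had the highest mean outside the pump. It was at 395, 305, 275 and 283 TPM in non-trogocytic libraries 1 to 4 and 289, 201, 317 and 282 TPM in trogocytic libraries 1 to 4. The groups overlapped except for non-trogocytic 1 above and trogocytic 2 below the rest, and the fold change was -0.21 ± 0.20. Ppt1, which removes fatty acids from proteins, ranged over 34.7 to 94.6 TPM with a fold change of -0.17 ± 0.33, and above 0, at 0.12, without trogocytic 3. Its exons overlap those of Cap1 (mean 11.4 TPM) on the other strand over 129 bases. Without non-trogocytic library 4, 6 of the 36 genes had groups that did not overlap: Atp6v0d2, Atp6v1a, Atp6v1h, Man2b1, Tpp1 and Grn. All genes tested then gave 5.25%. Without trogocytic library 1 there were 3 (Atp6v0d2, Atp6v1f and Glb1), beside 5.88% of all genes tested.

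The 3 MiT/TFE factors were low in every library. Tfeb was at 0.188, 0, 0.928 and 0.201 TPM in non-trogocytic libraries 1 to 4 and 0.453, 0.256, 0 and 0 TPM in trogocytic libraries 1 to 4, under the minimum for testing. Tfe3 was at 3.02, 0.556, 1.55 and 0.810 TPM in non-trogocytic libraries 1 to 4 and 1.65, 1.40, 0.934 and 0.735 TPM in trogocytic libraries 1 to 4, with a fold change of -0.11 ± 0.42, which turned positive without non-trogocytic 1. Mitf, which also drives osteoclast and pigment cell genes, was at 2.08, 0.985, 5.08 and 0.057 TPM in non-trogocytic libraries 1 to 4 and 0, 0, 3.22 and 1.38 TPM in trogocytic libraries 1 to 4, listed at 0 in 2 trogocytic libraries and highest in non-trogocytic 3, with a fold change of -0.49 ± 0.65, or -0.07 without non-trogocytic 3 and -0.91 without non-trogocytic 4. With a mean of 0.253, 1.33 and 1.60 TPM, these were among the lowest of the 38 genes, and neither of the 2 tested passed (limma adjusted p = 0.9998). The plot of levels shows them at the low end of the 38 genes, together with Gaa and Glb1.

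**Figure D3:**
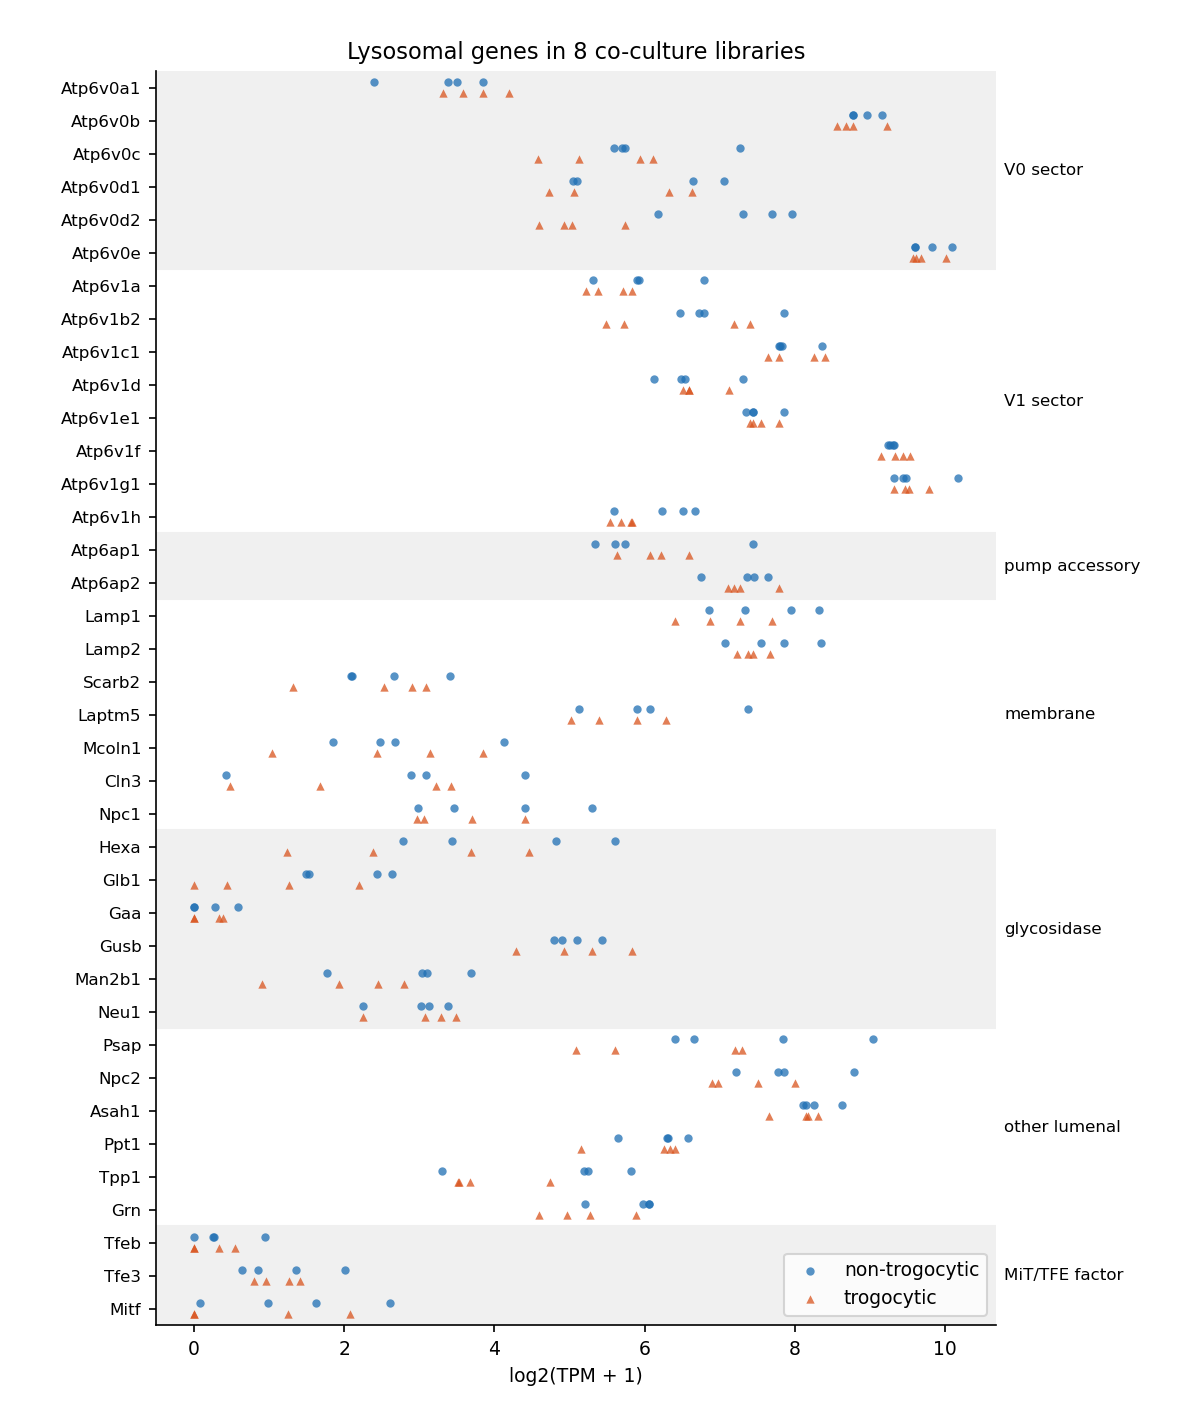
Levels of all 38 lysosomal genes in the 8 libraries, in log2(TPM + 1), by role. Circles are non-trogocytic and triangles trogocytic co-cultures. Pump genes such as Atp6v0e and Atp6v1g1 lie within narrow ranges, Atp6v0d2 is split by group, and the 3 transcription factors lie at the low end.

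Among other genes of the lysosome, 74 were listed from the same pathway and 59 were tested. None passed the test (limma adjusted p = 0.9998 for each). At an unadjusted p below 0.05 there were 5, of which 4 were lower, beside 525 of all 11433 genes tested, of which 288 were lower. Fold changes were below 0 for 42 of the 59 (71.2%), beside 49.3% of all genes tested, with a median of -0.19 beside 0.01. Of the hydrolases in that list, 17 of 21 tested were below 0 (median -0.49). Of the membrane proteins and transporters it was 11 of 15 (median -0.17), and of the genes for nutrient signalling on the lysosome and enzyme sorting 11 of 20 (median -0.05).

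Of the 10 other pump isoforms and subunits listed, 3 were tested. Atp6v0a4, Atp6v1b1, Atp6v1c2, Atp6v1e2 and Atp6v1g3, known from kidney and other specialised tissues, were listed at 0 in all 8 libraries. Tcirg1, the large-subunit isoform of osteoclasts, was at 11.5, 10.3, 10.7 and 2.08 TPM in non-trogocytic libraries 1 to 4 and 3.13, 5.67, 12.2 and 0.840 TPM in trogocytic libraries 1 to 4. Its fold change was -0.73 ± 0.69, and low values occurred in both groups. Atp6v0a2, another isoform of that subunit, was at 6.43, 16.1, 5.01 and 9.59 TPM in non-trogocytic libraries 1 to 4 and 10.3, 2.50, 5.59 and 10.1 TPM in trogocytic libraries 1 to 4, with a fold change of -0.37 ± 0.53 and groups that overlapped. Rnasek, a small protein of the V0 sector, was at 220.0, 140.0, 170.5 and 52.2 TPM in non-trogocytic libraries 1 to 4 and 164, 54.9, 111 and 60.1 TPM in trogocytic libraries 1 to 4. Its fold change was -0.54 ± 0.47, and it shares 599 exon bases with Gm21988 (mean 46.4 TPM) on the same strand, so the split of reads between them is uncertain.

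The most abundant of the other lysosome genes were 2 membrane proteins, 3 subunits of Ragulator and a protease. Cd63, a tetraspanin of late endosomes, was at 1997, 999, 1450.2 and 994 TPM in non-trogocytic libraries 1 to 4 and 1208, 663, 812 and 1058 TPM in trogocytic libraries 1 to 4, with a fold change of -0.52 ± 0.26. Cd68, a glycoprotein used to mark macrophages, was at 2039, 764, 939 and 507 TPM in non-trogocytic libraries 1 to 4 and 1111, 312, 401 and 869 TPM in trogocytic libraries 1 to 4, with a fold change of -0.65 ± 0.47. Lgmn, the protease legumain, was at 468, 548, 227 and 274 TPM in non-trogocytic libraries 1 to 4 and 371, 109, 99.2 and 410.5 TPM in trogocytic libraries 1 to 4, with a fold change of -0.81 ± 0.49. In all 3 the groups overlapped, and trogocytic 2 and 3 were the lowest libraries.

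The 3 most abundant genes of Ragulator, the complex that anchors nutrient signalling to the lysosome, had fold changes near 0. Lamtor2 was at 919, 507, 759 and 593 TPM in non-trogocytic libraries 1 to 4 and 852, 654, 674 and 745 TPM in trogocytic libraries 1 to 4, with a fold change of 0.10 ± 0.20. Lamtor3 was at 345, 354, 333 and 369 TPM in non-trogocytic libraries 1 to 4 and 314, 342, 331 and 366 TPM in trogocytic libraries 1 to 4, with a fold change of -0.05 ± 0.14. Lamtor5 was at 498, 394, 657 and 561 TPM in non-trogocytic libraries 1 to 4 and 524, 508, 604 and 555 TPM in trogocytic libraries 1 to 4, with a fold change of 0.08 ± 0.18. The fold changes of the less abundant Lamtor4 and Lamtor1 were -0.25 and -0.91. The groups overlapped for the first 3, and Lamtor3 spread by 1.18-fold over the 8 libraries.

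The 5 genes at an unadjusted p below 0.05 were named after their values were seen. Acp5, the tartrate-resistant acid phosphatase of osteoclasts and macrophages, was at 73.0, 159.6, 71.8 and 69.8 TPM in non-trogocytic libraries 1 to 4 and 67.6, 15.5, 25.7 and 66.7 TPM in trogocytic libraries 1 to 4, with a fold change of -1.23 ± 0.48 and groups that did not overlap, though trogocytic 1 and 4 lay close below the non-trogocytic range. Lamtor1, the Ragulator subunit that sits in the membrane, was at 97.1 ± 52.5 TPM (SD, n = 4) against 47.0 ± 7.06 TPM (SD, n = 4), with a fold change of -0.91 ± 0.33 and groups that did not overlap. Acp5 and Lamtor1 were the 2 of these 59 genes whose groups did not overlap, beside 2.68% of all genes tested. Tmem192, a lysosomal membrane protein, had a fold change of -0.86 ± 0.32. Rragd, a GTPase of the nutrient pathway, was at 5.14 ± 3.63 TPM (SD, n = 4) against 1.22 ± 1.46 TPM (SD, n = 4), with a fold change of -1.55 ± 0.60. Dnase2a, which degrades DNA of engulfed cells, was the gene above 0, at 15.8 ± 7.70 TPM (SD, n = 4) against 31.6 ± 9.73 TPM (SD, n = 4) and a fold change of 1.10 ± 0.49.

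Levels of the lysosomal genes were then set beside those of cell markers across the 8 libraries. The mean log2(TPM + 1) of the 14 tested macrophage markers was 5.94, 5.22, 5.18 and 4.72 in non-trogocytic libraries 1 to 4 and 5.25, 3.68, 3.40 and 4.68 in trogocytic libraries 1 to 4. The mean of the 14 epithelium markers was 5.57, 7.47, 6.21 and 6.70 and then 6.13, 6.49, 6.21 and 6.35. Both means correlated with each other at r = -0.17 over the 8 libraries. Fold changes of the epithelium markers were below 0 for 7 of 14 (median -0.02), beside 49.3% of all genes tested (median 0.01). Those of the 10 T cell markers were all above 0 (median 0.98). At an unadjusted limma p below 0.05, 2 of these 10 were higher, beside 237 of all 11433 genes tested. Those of the 6 leukocyte markers were below 0 for 3 (median 0.05). Of the other lists, 4 of 4 tested B cell markers were above 0 (median 0.43), 5 of 6 neutrophil markers (median 0.58) and 8 of 8 mitochondrial transcripts (median 0.45 and summed levels of 2714 to 8633 TPM against 4723 to 9355 TPM). None of these genes passed the test, and their part in the lysosomal values was not tested. Relations were computed for 11433 genes with each marker mean, by an exact permutation test over 40320 pairings, whose smallest p is 2.48e-05, and the values of a library share 1 TPM total.

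After adjustment over all genes tested no gene correlated with the macrophage mean, the smallest adjusted permutation p being 0.189 over all and 0.194 over the lysosomal genes. As a description, 32 of the 36 lysosomal genes had r above 0, beside 48.4% of all genes tested, and their median r was 0.62 beside -0.02. At an unadjusted p below 0.05, 13 were positive, beside 5.29% of all genes tested, and 1 was negative, beside 5.07%. The 13 were Grn, Npc2, Glb1, Man2b1, Atp6v1a, Laptm5, Lamp1, Atp6v0d2, Psap, Hexa, Atp6v1h, Atp6v0b and Tpp1. Hydrolases and other lumenal genes led that order and 4 of the 13 were pump genes. Some of the 32 depended on trogocytic 2 and 3, which had the lowest macrophage means. Leaving both out took r from 0.625 to -0.0785 for Atp6v0c and from 0.643 to -0.391 for Atp6v1b2. For Scarb2, Mcoln1 and Gusb it went from 0.222, 0.425 and 0.52 to -0.717, -0.191 and -0.19. Atp6ap2 turned the other way, from -0.0993 to 0.649. The 36 genes share 8 libraries, so these counts are not independent.

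Grn gave r = 0.934 (two-sided exact permutation p = 0.000521, adjusted p = 0.194) and rho = 0.857 (permutation p = 0.0107), and r = 0.82 without trogocytic 2 and 3, the libraries farthest from the median of the macrophage mean. Npc2 gave r = 0.925 (two-sided exact permutation p = 0.00062, adjusted p = 0.194) and rho = 0.929 (permutation p = 0.00223), and r = 0.969 without them. Glb1 gave r = 0.913 (two-sided exact permutation p = 0.00231, adjusted p = 0.225) and rho = 0.905 (permutation p = 0.00456), and r = 0.741 without them. For these 3, r with the group means taken out was 0.893, 0.915 and 0.861. That value pools the deviations of both groups, carries no test and is written below as r within the groups. It was not computed for either group alone. These 3 are named for the highest r in the same libraries, so a high value here is no separate support. Laptm5 gave r = 0.844 (two-sided exact permutation p = 0.00593, adjusted p = 0.272) and rho = 0.929 (permutation p = 0.00223), with r = 0.914 without those libraries and 0.87 within the groups.

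Atp6v0d2 gave r = 0.812 (two-sided exact permutation p = 0.0134, adjusted p = 0.36) and rho = 0.762 (permutation p = 0.0368), with r = 0.738 without trogocytic 2 and 3 and 0.698 within the groups. For a further 3 genes r was much lower without those libraries. It dropped from 0.805 to 0.415 for Psap, from 0.778 to 0.302 for Hexa and from 0.729 to 0.422 for Atp6v0b. Within the groups these 3 gave 0.727, 0.708 and 0.772. The negative one was Atp6v0a1, with r = -0.875 (two-sided exact permutation p = 0.00164, adjusted p = 0.198) and rho = -0.929 (permutation p = 0.00223), r = -0.943 without trogocytic 2 and 3 and -0.856 within the groups. It was the one V0 gene that was lowest where the macrophage markers were highest.

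With the epithelium mean no gene passed either, the smallest adjusted permutation p being 0.0567 over all and 0.238 over the lysosomal genes. None of the 36 was positive at an unadjusted p below 0.05, beside 9.43% of all genes tested, and 5 were negative, beside 3.53%. These were Atp6v1d (r = -0.849), Tfe3 (-0.824), Atp6v1g1 (-0.774), Atp6v1e1 (-0.746) and Atp6v0e (-0.73), so 4 were pump genes. Atp6v1d gave r = -0.849 (two-sided exact permutation p = 0.00697, adjusted p = 0.238) and rho = -0.69 (permutation p = 0.0694). Without non-trogocytic 1 and 2, which are farthest from the median of the epithelium mean, the r of Atp6v1d was -0.457, and within the groups it was -0.847. Tfe3 and Atp6v1e1 gave -0.499 and -0.48 without those libraries, and -0.871 and -0.75 within the groups. Atp6v1g1 and Atp6v0e gave -0.599 and -0.716, and -0.828 and -0.78 within the groups. Leaving out the farthest libraries narrows the range of the mean, which can by itself bring r nearer to 0.

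**Figure D4:**
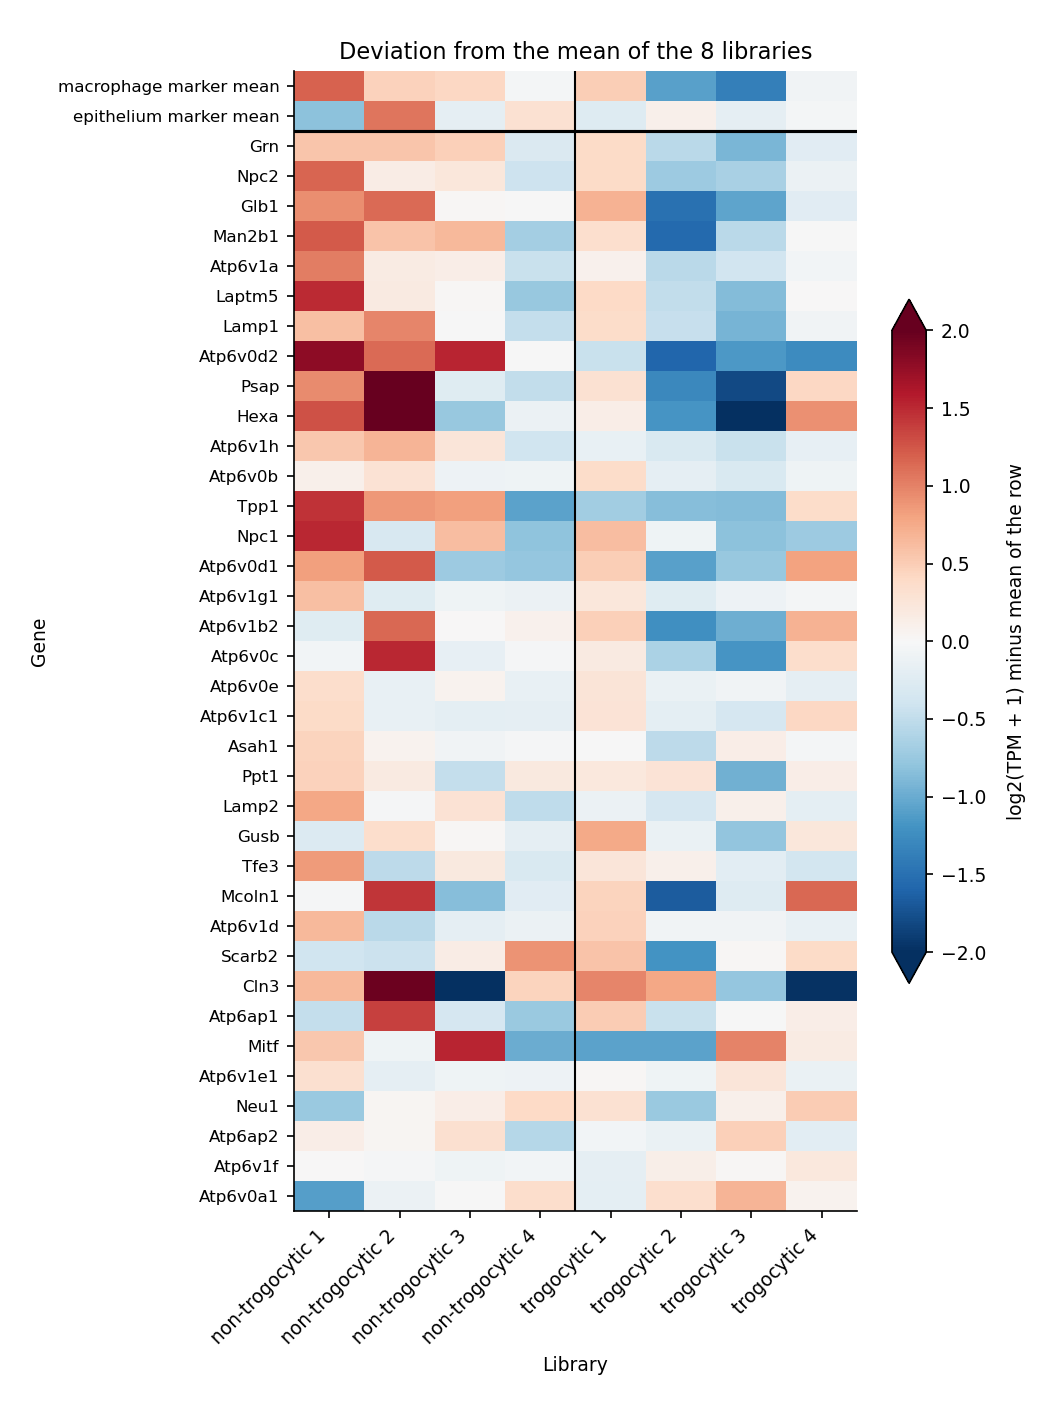
Deviation of each tested lysosomal gene from its own mean over the 8 libraries, in log2(TPM + 1), with both marker means in the top rows. Genes are ordered by r with the macrophage marker mean, red is above and blue below the gene's mean, and the vertical line divides the groups. Trogocytic 2 and 3 are blue in most of the upper genes, non-trogocytic 1 is red, and trogocytic 1 is nearer to the non-trogocytic libraries.

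**Figure D5:**
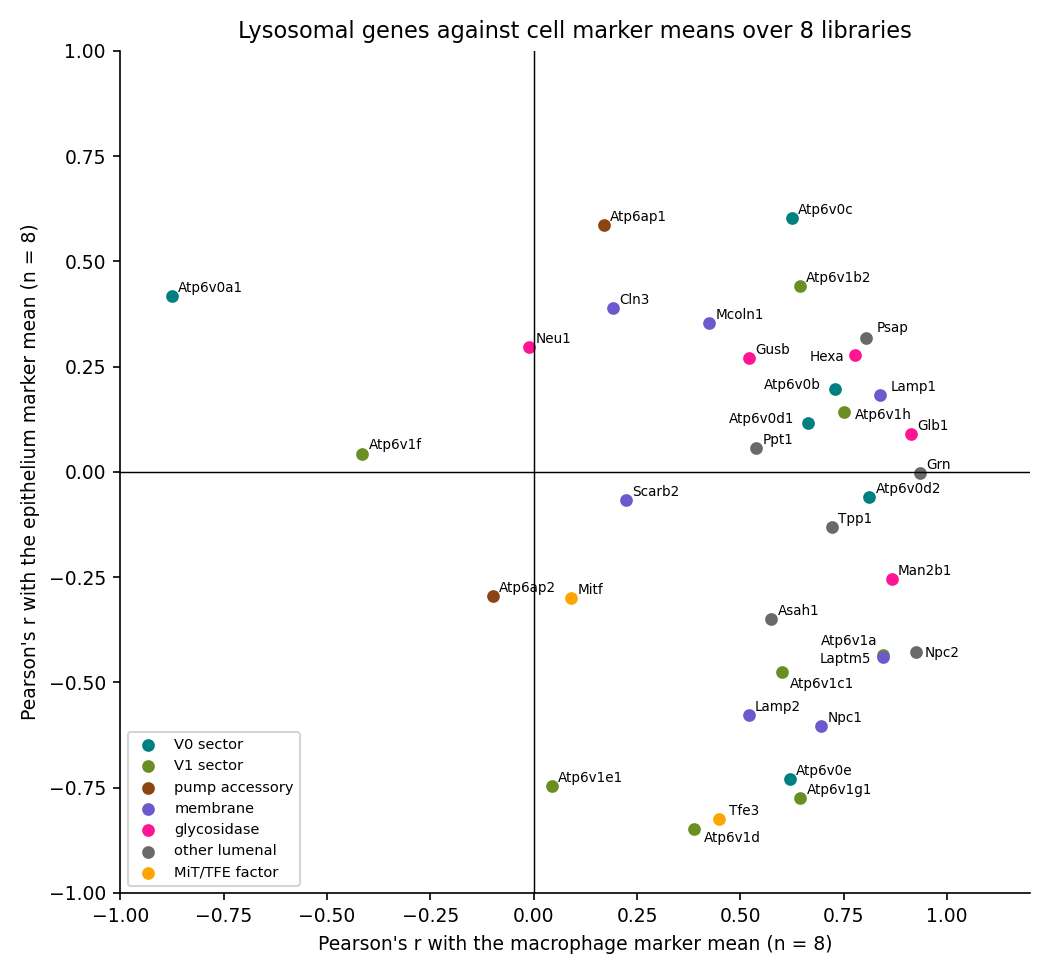
Pearson's r of each tested lysosomal gene with the macrophage marker mean (horizontal) and with the epithelium marker mean (vertical) over 8 libraries, coloured by role. Most genes lie to the right of 0, Atp6v0a1 lies far to the left, and Atp6v1d, Tfe3, Atp6v1g1, Atp6v1e1 and Atp6v0e lie lowest.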

How the data were processed

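Polyadenylated RNA of 8 mixed co-cultures was sequenced as paired reads of 100 bp from a low-input library kit, per the labels' protocols. Per the submitters' processing notes, the tools were StringTie 1.3.3, HISAT2 and DESeq version 2 and the builds mm10 and GRCm38. Which annotation release and strand setting was used is not given in the sources used here. Per the file headers, each deposited table lists TPM, FPKM and coverage by gene for 1 library. The deposited coverage signal was used only to estimate depth, the TPM normalised by the authors for every result, and the FPKM deposited by the authors as an alternative. Read counts were not analysed here.

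TPM was summed over rows of an ID (12 IDs had more than 1 row). Genes that reached 1 TPM in 4 libraries entered a limma fit (limma 3.58.1, R 4.3.3) of log2(TPM + 1) with the trend option for the variance, a scale that understates changes of low genes. The test was two-sided, with Benjamini-Hochberg adjustment over all 11433 genes and a threshold of 0.05, and was tested on simulated data. Correlations and their permutation tests used numpy 2.4.6, with ranks for rho from scipy 1.17.1. Promoters come from RefSeq (GRCm38.p6). Coordinates are those of the files, and 35 of the 38 genes have the same ID and version in GENCODE M21.

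The genes, lists and alternatives were chosen with earlier results of these data known. All 38 genes are named. Every library is given for the 8 with the smallest p, the 5 with the highest mean TPM, genes whose groups do not overlap, Laptm5 and the 3 factors. Of the other lysosome genes, the rule names any called (there was none), the tested pump isoforms and the 6 with the highest mean TPM, and 5 more at an unadjusted p below 0.05 were added after their values were seen. The labels do not say that libraries of a group come from separate animals or cultures. The limma p-values set a group difference against the spread among these libraries, which is perhaps in part technical. They may therefore not extend to other animals or cultures. Alternatives were FPKM, a pseudocount of 0.1, a minimum of 5 TPM, no minimum, median-of-ratios scaling, no mean-variance trend, a replicate block and leaving out libraries.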

Additional observations from a re-analysis of the deposited data

Results flagged for a closer look

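In 6 of the 72 groups of 4 libraries (36 genes in each of the 2 groups), 1 library stood apart from the other 3 of its group by Dixon's criterion for groups of 4, which chance alone gives in about 1 of 20 groups. Among non-trogocytic co-cultures, Atp6v0c was at 153.9 TPM in library 2 (the others at 47.2 to 52.5 TPM). Atp6v1c1 was at 328.0 TPM in library 1 (220.8 to 226 TPM) and Grn at 36.1 TPM in library 4 (62.1 to 66.0 TPM). Among trogocytic co-cultures, Atp6v1d was at 138.9 TPM in library 1 (90.6 to 95.2 TPM). Ppt1 was at 34.7 TPM in library 3 (75.5 to 83.4 TPM) and Tpp1 at 25.8 TPM in library 4 (10.4 to 11.8 TPM). These libraries are 3 of each group and differ from gene to gene within a group.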

How the results depend on the processing

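No lysosomal gene passed the limma threshold under the alternatives, except Atp6v0d2 without non-trogocytic library 4, so that leaving out 1 library gave 0 to 1. None of the other lysosome genes passed under any of them. Over all genes tested, 6 passed, and 3 did under FPKM, 1 with no minimum, 1 with no mean-variance trend, 0 with the first replicates of both groups left out (an alternative chosen after seeing the data), and 0 to 3 with 1 library left out (3 without non-trogocytic 1 or 4, 2 without non-trogocytic 2, 1 without trogocytic 4 and 0 without any of the others). With the replicate number as a block 0 passed, also with median-of-ratios scaling. Deviations of same-numbered libraries correlated at 0.24, 0.0054, 0.062 and -0.093. Those of differently numbered libraries correlated at -0.21 to 0.17, and only the first replicates lay above that range. The labels state no pairing, and these values do not settle whether there is one. Of the 36 genes, 1 to 6 had groups that did not overlap with 1 library left out, beside 4.76 to 6.2% of all genes tested. The count was 1 except without non-trogocytic 4 or trogocytic 1. Without the first replicates it was 3 (10.5% of all genes then). Genes correlated with the epithelium mean numbered 5 under FPKM. The number with a fold change below 0 was 24 to 32 over the alternatives. Of 606 fold changes under alternatives, 41 had the other sign, in 15 genes whose size was at most 0.51, and 21 genes kept their direction. Of these 21, 17 moved by over 1.5 times when 1 library was left out: Atp6v0a1 0.15 to 0.63, Atp6v0b -0.24 to -0.02, Atp6v0c -0.86 to -0.23, Atp6v1a -0.67 to -0.18, Atp6v1b2 -0.83 to -0.19, Atp6v1f 0.02 to 0.15, Lamp1 -0.80 to -0.32, Lamp2 -0.49 to -0.06, Laptm5 -0.80 to -0.05, Npc1 -0.85 to -0.08, Hexa -1.73 to -0.65, Man2b1 -1.25 to -0.51, Psap -1.54 to -0.67, Npc2 -0.79 to -0.27, Asah1 -0.29 to -0.07, Tpp1 -1.55 to -0.71 and Mitf -0.91 to -0.07. With 1 library left out the log2 fold changes of the 15 that changed sign were -0.13 to 0.57 (Atp6ap1), -0.14 to 0.15 (Atp6ap2), -0.59 to 0.092 (Atp6v0d1), -0.15 to 0.049 (Atp6v0e), -0.050 to 0.21 (Atp6v1c1), -0.076 to 0.32 (Atp6v1d), -0.059 to 0.13 (Atp6v1e1), -0.18 to 0.10 (Atp6v1g1), -1.27 to 0.070 (Cln3), -0.21 to 0.30 (Gusb), -0.57 to 0.36 (Mcoln1), -0.15 to 0.35 (Neu1), -0.36 to 0.12 (Ppt1), -0.32 to 0.27 (Scarb2) and -0.30 to 0.15 (Tfe3). Under FPKM they were -0.015 (Atp6ap2), -0.032 (Atp6v1e1) and -0.0145 (Gusb). Without the first replicates they were 0.016 (Atp6v1g1), -0.20 (Atp6ap1), -0.30 (Gusb), -0.24 (Neu1) and 0.055 (Tfe3). The cause of these changes was not tested, and depth limits genes of a few TPM.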
